A study of Homo sapiens with 6 samples.

Results

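The genes described here encode the ZBTB transcription factors, proteins that join an amino-terminal BTB domain to carboxy-terminal C2H2 zinc fingers. The BTB domain lets these proteins pair with each other and recruit corepressors such as BCOR and the CUL3 ubiquitin ligase, while the zinc fingers bind DNA. Most studied members repress transcription, and several are known for steering blood cell lineages, reading methylated DNA or binding telomeres. Members were taken as every gene entry whose symbol is ZBTB followed by a number and at most 1 further capital letter. This gave 41 of 56303 gene entries, spread over 15 chromosomes. Another 13 entries carry the prefix but are antisense, intronic, pseudogene or otherwise suffixed entries, and they were not counted as members.

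The RNA came from AGS, a human line established from a gastric adenocarcinoma. The siSRSF2 group (3 libraries) was transfected with a small interfering RNA aimed at SRSF2, and the WT group (3 libraries) is labelled wild-type. SRSF2 encodes a serine/arginine-rich protein that binds exonic RNA and acts in splice site choice. Neither a control siRNA for the WT cells nor separate cultures for the replicates are given in the labels, and the p-values therefore reflect only how far these samples spread, which may be technical.

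SRSF2 itself stood at 21.6, 21.8 and 24.9 CPM (counts scaled to a common library size) in the siSRSF2 libraries, against 44.5, 46.4 and 44.1 CPM in the WT libraries (log2 fold change -0.98, SE 0.064, edgeR adjusted p = 4.39e-13). Libraries held between 26610937 and 36651623 counts in the siSRSF2 group, against 47518943 to 50021152 counts in the WT group. A count of 3 was worth 0.0630 to 0.110 CPM, counting error only. The 6 epithelial markers read as a check of the line summed to 3693 to 3956 CPM in the siSRSF2 libraries, against 4130 to 4547 CPM in the WT libraries, mostly from the keratins KRT8 and KRT18. KRT8 fell slightly (log2 fold change -0.22), CLDN7 (10.0 CPM in siSRSF2 cells and 1.70 CPM in WT cells, log2 fold change 2.56) and CLDN4 (4.99 CPM in siSRSF2 cells and 1.45 CPM in WT cells, log2 fold change 1.79) rose, and EPCAM, KRT18 and KRT19 did not pass the test. The 7 fibroblast and endothelial markers summed to 43.5 to 48.1 CPM in the siSRSF2 libraries, against 22.6 to 22.8 CPM in the WT libraries. COL1A1 carried most of it (35.6 CPM in siSRSF2 cells and 15.97 CPM in WT cells). DCN (5.08 CPM in siSRSF2 cells and 1.01 CPM in WT cells, log2 fold change 2.33) and PDGFRB (0.46) also rose. The endothelial genes PECAM1 (log2 fold change -2.03) and CDH5 (-1.21) fell, and COL1A2 did not pass the test. All fold changes below are siSRSF2 over WT.

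The ZBTB genes moved in both directions. Of the 40 members that passed the low-count filter, 19 (47.5%) rose, 13 (32.5%) fell and 8 did not pass the test (edgeR, adjusted p under 0.05 over all 23689 genes tested). Among all genes tested, 30.1% rose and 29.0% fell, and among the 13556 protein-coding genes tested 33.3% rose and 37.9% fell. The median log2 fold change was 0.16 over the tested members, 0.02 over all genes and -0.02 over protein-coding genes. The 408 tested genes named ZNF with a number, which also encode zinc-finger proteins, counted 106 higher and 130 lower with a median of -0.04, and the 29 tested KLHL genes, which share the BTB domain, counted 7 higher and 8 lower with a median of 0.18. These are RNA levels of bulk cultures, in which fewer cells of a type and less RNA per cell cannot be told apart.

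Most changes were moderate in size. Of the risers, 10 changed by under 1.5-fold, 3 by 1.5- to 2-fold and 6 by over 2-fold, and of the fallers 8, 3 and 2 did so. Over 2-fold rises made up 13.4% of all genes tested and over 2-fold falls 5.91%. The siSRSF2 and WT libraries did not overlap in CPM for 32 of the 40 tested members (80%), beside 63.8% of all genes tested. Among protein-coding genes, as all members are, 10122 of the 13556 tested did not overlap, which is closer to the share of the members. On GRCh38 the members with the largest changes lie at chr6:151364117-151391548 (ZBTB2), chr6:109462594-109483237 (ZBTB24), chr18:48026673-48410752 (ZBTB7C) and chr11:114059593-114250676 (ZBTB16), and all 41 are annotated as protein-coding. ZBTB8B was the member left untested, with 4, 6 and 6 counts in the siSRSF2 libraries and 8, 4 and 4 counts in the WT libraries, with means of 0.159 CPM in siSRSF2 cells and 0.113 CPM in WT cells.

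**Figure D1:**
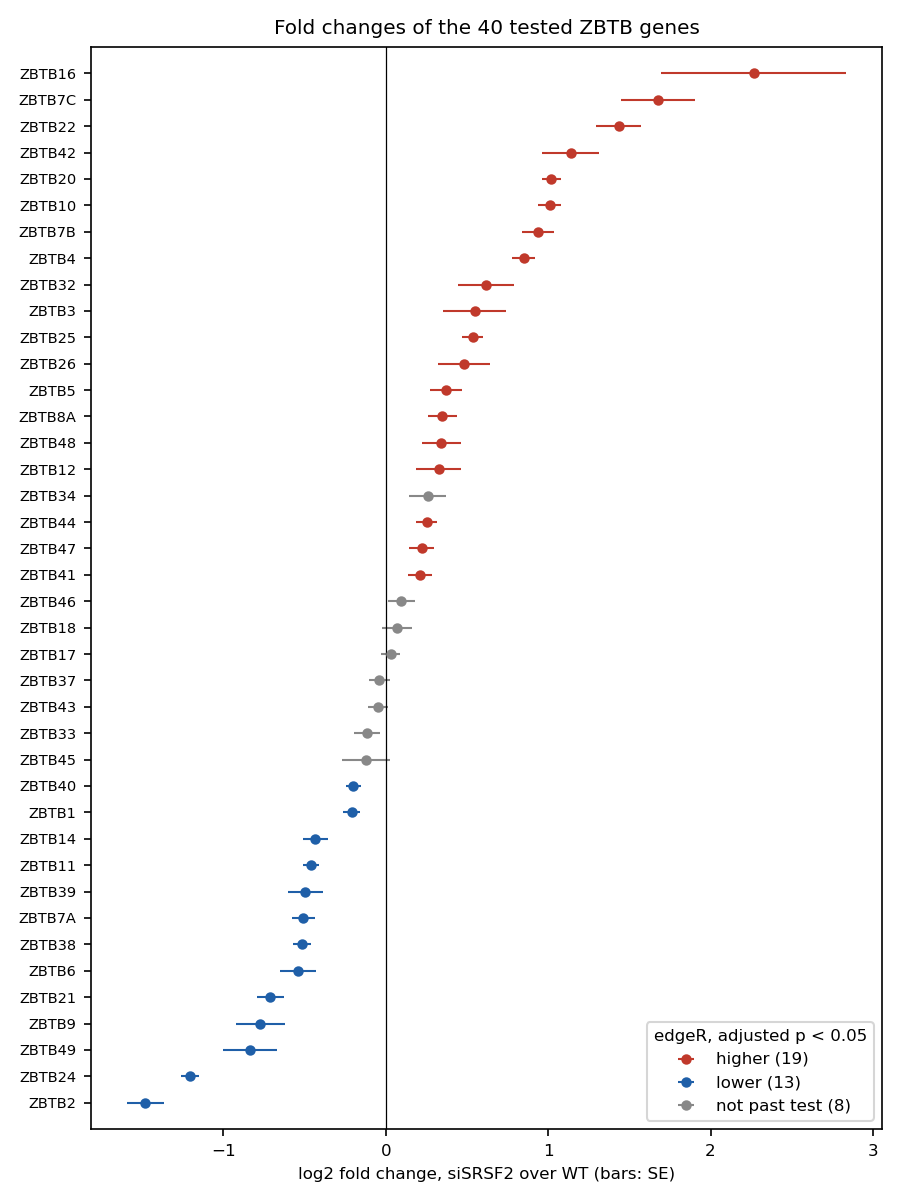
Log2 fold change (siSRSF2 over WT, x axis) with its SE for each of the 40 tested ZBTB genes (y axis), coloured by the outcome of the edgeR test. ZBTB16 (2.27) and ZBTB7C (1.68) lie at the high end, and ZBTB24 (-1.20) and ZBTB2 (-1.48) at the low end.

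Levels and directions were not spread evenly over the family. On a scale of CPM per kb of exon, which allows levels of different genes to be compared, ZBTB7A ranked highest in both groups, at 11.7 in siSRSF2 cells and 16.6 in WT cells. Of the 10 members with the highest WT level, 7 fell, 1 (ZBTB47) rose and 2 (ZBTB17 and ZBTB43) did not pass the test. Of the 10 tested members with the lowest WT level, 8 rose, none fell and 2 did not pass. The 8 include ZBTB16, which passed the low-count filter only through its siSRSF2 counts, so the filter itself favours rises among members of very low WT level. The median WT level was 1.37 CPM per kb for the risers, 4.64 CPM per kb for the fallers and 2.93 CPM per kb for the rest. WT levels enter the fold change, so the ranks and the direction are not separate measurements, and the association is given with no test. The same counts by level were not made over all genes tested, so the pattern is not shown to be particular to this family. The summed level of all 41 genes was 899, 918 and 862 CPM in the siSRSF2 libraries, against 941, 936 and 954 CPM in the WT libraries. With scaling by library totals alone, an alternative chosen after the data were seen, the sum was 917, 965 and 915 CPM in the siSRSF2 libraries, against 899, 900.1 and 905 CPM in the WT libraries. The direction of the sum thus depends on the scaling, and no direction is given for it.

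**Figure D2:**
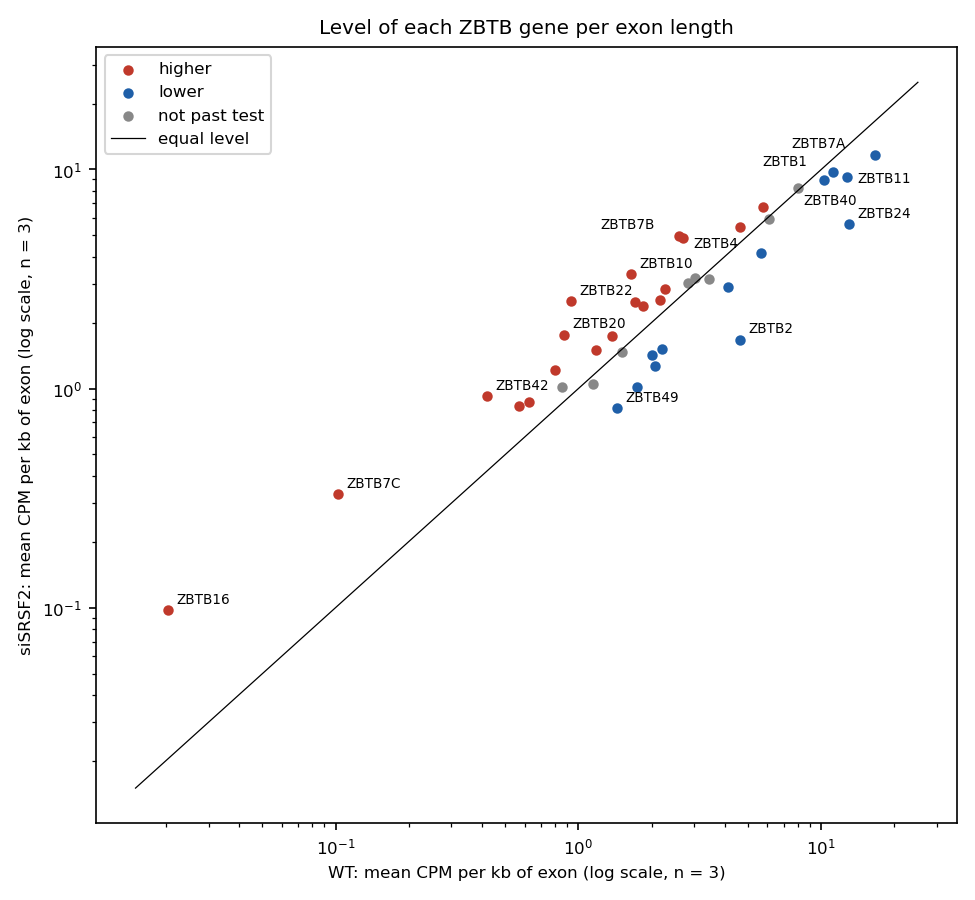
Mean CPM per kb of exon of each tested ZBTB gene in siSRSF2 cells (y axis) and WT cells (x axis), both on log scales, with a line at equal level. Fallers (ZBTB7A, ZBTB24, ZBTB11, ZBTB1, ZBTB40) fill the upper right end below the line, and risers (ZBTB42, ZBTB7C, ZBTB16) the lower left end above it.

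Promoter sequences are shown for 3 fallers whose windows hold an E-box and for a pair of neighbours that moved apart and share such an element. RefSeq (GRCh38.p14) promoter windows, from 250 bases before to 50 bases after an annotated start, were at hand for 35 of the 41 members, 68 windows in all. The first stretch lies on chromosome 14 where the heads of ZBTB1 and ZBTB25 overlap. ZBTB1, on the plus strand, fell, and ZBTB25, on the minus strand, rose. This first stretch is the 148 bases that a window of each gene shares, at chr14:64503789-64503936, written on the plus strand. The others belong to ZBTB24 (chr6:109483170-109483469), ZBTB21 (chr21:42010311-42010610) and ZBTB11 (chr3:101677083-101677382), which all fell and all lie on the minus strand, as written here. Capitals mark the E-box CACGTG, the cAMP response element TGACGTCA and the ETS site CCGGAAGT, on either strand.
ZBTB1 and ZBTB25, shared: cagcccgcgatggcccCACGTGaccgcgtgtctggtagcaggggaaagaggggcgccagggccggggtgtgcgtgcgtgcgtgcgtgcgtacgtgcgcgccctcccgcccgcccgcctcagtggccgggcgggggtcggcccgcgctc
ZBTB24: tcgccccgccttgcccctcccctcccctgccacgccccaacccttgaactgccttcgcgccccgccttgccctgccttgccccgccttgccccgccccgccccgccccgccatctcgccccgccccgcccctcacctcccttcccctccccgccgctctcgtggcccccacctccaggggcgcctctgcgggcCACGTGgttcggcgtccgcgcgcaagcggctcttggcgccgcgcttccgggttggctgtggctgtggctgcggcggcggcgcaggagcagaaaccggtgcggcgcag
ZBTB21: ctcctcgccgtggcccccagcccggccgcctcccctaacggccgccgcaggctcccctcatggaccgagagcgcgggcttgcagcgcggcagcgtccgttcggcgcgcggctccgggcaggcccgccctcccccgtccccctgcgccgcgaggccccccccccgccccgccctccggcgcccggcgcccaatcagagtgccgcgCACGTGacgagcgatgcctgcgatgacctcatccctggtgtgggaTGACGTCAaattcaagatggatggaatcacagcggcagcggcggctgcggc
ZBTB11: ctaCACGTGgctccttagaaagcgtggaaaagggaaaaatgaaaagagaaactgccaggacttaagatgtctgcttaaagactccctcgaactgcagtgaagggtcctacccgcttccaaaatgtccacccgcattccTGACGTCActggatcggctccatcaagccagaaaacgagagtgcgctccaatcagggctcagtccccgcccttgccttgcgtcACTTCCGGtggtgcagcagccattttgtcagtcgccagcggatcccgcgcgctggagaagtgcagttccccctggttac

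Each of these 4 stretches holds an E-box, the element bound by MYC, USF and related basic helix-loop-helix proteins. In the shared stretch the same 6 letters lie at 64503805 to 64503810. That is 82 bases before an annotated ZBTB1 start and 28 bases after an annotated ZBTB25 start. Windows at other annotated starts of both genes hold no E-box. In the counted gene entries ZBTB1 starts at 64503712 and ZBTB25 at 64505213, so the site lies inside both. Over the family, 8 of 35 genes (22.9%) had an E-box in a window, beside 8.77% of all 27305 RefSeq genes in the table. Members have more windows per gene, and counted per window the E-box was found in 8 of 68 member windows (11.8%) and in 7.26% of all 35116 windows. The site shared by ZBTB1 and ZBTB25 is counted for both genes. These were 5 of 11 fallers (ZBTB1, ZBTB11, ZBTB21, ZBTB24 and ZBTB49), 2 of 16 risers (ZBTB25 and ZBTB32) and ZBTB37. The cAMP response element was found in 11.4% of member genes and 2.25% of all genes, and the ETS site in 11.4% and 4.95% (per window 5.88% and 1.85%, and 7.35% and 4.14%). TCCTGCNA, the unmethylated site of the member ZBTB33 (Kaiso), was found in 14.3% and 5.75%, and the Sp1 site GGGCGG, not capitalised, in 91.4% and 48.3% (per window 7.35% and 4.69%, and 60.3% and 45%). All 5 motifs were searched on both strands and chosen with the results known, and a match is a run of letters, not a bound site. Windows of fallers held a median of 27 CpG and those of risers 15.5, beside 14 over all windows, and median GC was 69.5%, 58.7% and 58.7% in that order. These medians are over windows (24 of 11 fallers and 32 of 16 risers). Genes with many annotated starts, such as ZBTB38 among the fallers and ZBTB20 among the risers, therefore weigh more in them.

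The 3 methyl-CpG binders of the family split. ZBTB33 (Kaiso), ZBTB4 and ZBTB38 all bind methylated CpG through their zinc fingers and repress nearby genes. ZBTB4 rose, ZBTB38 fell and ZBTB33 did not pass the test. ZBTB4 had 31.2, 29.2 and 29.2 CPM in the siSRSF2 libraries, against 17.8, 15.7 and 16.3 CPM in the WT libraries. All siSRSF2 values lay above all WT values (log2 fold change 0.85, SE 0.070, edgeR adjusted p = 4.64e-11). ZBTB38 had 40.7, 40.2 and 42.8 CPM in the siSRSF2 libraries, against 61.1, 59.2 and 56.6 CPM in the WT libraries, and here every siSRSF2 library was below every WT library (log2 fold change -0.52, SE 0.054, edgeR adjusted p = 5.01e-09). The groups overlapped for ZBTB33, which had 15.4, 18.0 and 17.3 CPM in the siSRSF2 libraries, against 17.9, 19.8 and 17.3 CPM in the WT libraries (log2 fold change -0.11, SE 0.080, edgeR adjusted p = 0.230). The ratio of ZBTB4 to ZBTB38 within a library, which does not depend on library scaling, was 0.768, 0.727 and 0.682 in the siSRSF2 libraries, against 0.290, 0.265 and 0.287 in the WT libraries. The ratio of ZBTB4 to ZBTB33 was 2.03, 1.62 and 1.69 in the siSRSF2 libraries, against 0.990, 0.792 and 0.943 in the WT libraries. Per kb of exon, ZBTB4 stood at 4.88 CPM in siSRSF2 cells and 2.70 CPM in WT cells, and ZBTB33 at 3.18 CPM and 3.45 CPM, so the order of these mean levels was reversed between the groups.

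Among the members that act at telomeres or on chromosome stability, 2 rose and 1 fell. ZBTB24, whose mutation causes a form of the immunodeficiency syndrome ICF with loss of pericentromeric DNA methylation, fell to 31.1 ± 1.31 CPM in siSRSF2 cells, against 71.6 ± 3.99 CPM in WT cells (SD, n = 3 each). Its libraries read 31.3, 29.7 and 32.3 CPM in the siSRSF2 libraries, against 69.3, 69.2 and 76.2 CPM in the WT libraries, which is a gap of more than 2-fold between the closest libraries of the groups (log2 fold change -1.20, SE 0.057, edgeR adjusted p = 7.60e-16). Of its exon bases, 5.53% are shared with MICAL1 on the same strand, which rose (log2 fold change 0.51, edgeR adjusted p = 1.29e-05). ZBTB10, a repressor that competes with Sp factors and binds variant telomeric repeats, had 33.0, 37.2 and 31.8 CPM in the siSRSF2 libraries, against 16.1, 17.4 and 17.1 CPM in the WT libraries. Its groups did not overlap (log2 fold change 1.01, SE 0.070, edgeR adjusted p = 1.81e-12). ZBTB48 (TZAP), which binds telomeric repeats and limits telomere length, had 6.07, 6.46 and 7.62 CPM in the siSRSF2 libraries, against 5.02, 5.56 and 5.37 CPM in the WT libraries (log2 fold change 0.34, SE 0.12, edgeR adjusted p = 0.0168). That change was small, the groups stood close to each other, and the call was lost without the third siSRSF2 library (0.23, edgeR adjusted p = 0.125) or without the first WT library (0.29, edgeR adjusted p = 0.0783).

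Members known from blood and immune lineages counted 4 higher, 2 lower and 1 that did not pass. ZBTB7A (LRF), a repressor of fetal globin genes and of glycolysis genes, had 73.2, 69.0 and 58.5 CPM in the siSRSF2 libraries, against 93.9, 89.8 and 101 CPM in the WT libraries. Every siSRSF2 library was below every WT library (log2 fold change -0.51, SE 0.070, edgeR adjusted p = 9.64e-06). ZBTB7B (ThPOK), which commits thymocytes to the CD4 lineage, moved the other way with 22.0, 23.2 and 19.1 CPM in the siSRSF2 libraries, against 10.9, 9.76 and 12.9 CPM in the WT libraries (log2 fold change 0.94, SE 0.097, edgeR adjusted p = 1.90e-08). ZBTB1, needed for lymphoid development, had 54.1, 49.5 and 50.3 CPM in the siSRSF2 libraries, against 59.8, 57.9 and 59.9 CPM in the WT libraries, a small fall without overlap (log2 fold change -0.21, SE 0.053, edgeR adjusted p = 0.00125). With scaling by library totals alone its log2 fold change was -0.08 and it did not pass. ZBTB25, a zinc-finger gene reported to act in T-cell activation, had 30.2, 31.7 and 28.9 CPM in the siSRSF2 libraries, against 20.02, 21.3 and 21.4 CPM in the WT libraries, and its groups lay apart (log2 fold change 0.53, SE 0.065, edgeR adjusted p = 7.70e-08).

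The other members of this set are expressed at lower levels or did not pass. ZBTB32 (ROG), a repressor of GATA factors in lymphocytes, had 3.09, 3.92 and 3.12 CPM in the siSRSF2 libraries, against 2.48, 2.25 and 1.90 CPM in the WT libraries (log2 fold change 0.62, SE 0.17, edgeR adjusted p = 0.00310). ZBTB16 (PLZF), the factor of innate-like T cells that is fused to RARA in a form of promyelocytic leukaemia, was barely detected, with 9, 19 and 36 counts in the siSRSF2 libraries and 4, 12 and 2 counts in the WT libraries. It passed the low-count filter only through the siSRSF2 group, and its values were 0.331, 0.493 and 1.04 CPM in the siSRSF2 libraries, against 0.0840, 0.263 and 0.0422 CPM in the WT libraries (log2 fold change 2.27, SE 0.57, edgeR adjusted p = 0.00136). The highest WT library lay just under the lowest siSRSF2 library, and the log2 fold change was 1.67 without the third siSRSF2 library, 1.84 without the third WT library and 3.25 without the second WT library. ZBTB46, which marks classical dendritic cells, had 17.7, 20.6 and 16.9 CPM in the siSRSF2 libraries, against 15.7, 18.4 and 17.6 CPM in the WT libraries, with overlapping groups (log2 fold change 0.10, SE 0.083, edgeR adjusted p = 0.333). Of the leukocyte markers read beside these genes, PTPRC was at 0.169 CPM in siSRSF2 cells and 0.0706 CPM in WT cells. MS4A1 was at 0 in every siSRSF2 library and CD3E at 0 in every WT library. The part of such cells or transcripts in the ZBTB values was not tested.

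In the set known from neural and hepatic development, 1 of 3 rose. ZBTB20, a repressor of alpha-fetoprotein in liver and a factor of hippocampal identity, had 55.2, 59.3 and 53.8 CPM in the siSRSF2 libraries, against 28.0, 26.7 and 28.4 CPM in the WT libraries, with no overlap (log2 fold change 1.02, SE 0.058, edgeR adjusted p = 2.74e-14). An entry named MIR568 lies wholly inside ZBTB20 exons, covers 47.7% of their bases and still holds 532, 840 and 696 counts in the siSRSF2 libraries, against 570, 454 and 578 counts in the WT libraries (log2 fold change 0.85, edgeR adjusted p = 2.19e-09). Reads in shared positions were thus kept for at least 1 entry, and how they were divided is not stated in the sources at hand. ZBTB18 (RP58), a repressor active in cortical neurogenesis, had 13.2, 11.4 and 12.7 CPM in the siSRSF2 libraries, against 12.6, 11.8 and 11.0 CPM in the WT libraries (log2 fold change 0.07, SE 0.090, edgeR adjusted p = 0.529). ZBTB45, described in glial development in mouse, had 3.24, 3.94 and 3.55 CPM in the siSRSF2 libraries, against 4.34, 3.74 and 3.65 CPM in the WT libraries (log2 fold change -0.12, SE 0.15, edgeR adjusted p = 0.499). Both sets of libraries overlapped for these genes. The ZBTB45 pseudogene entries ZBTB45P1 and ZBTB45P2 fell (log2 fold changes -0.83 and -0.61, edgeR adjusted p = 1.08e-07 and 5.75e-07), and 0.439% of the 50-base windows of ZBTB45 transcripts occur elsewhere in the annotation.

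ZBTB17 (MIZ1), the partner through which MYC represses cell cycle inhibitor genes, had the highest level per kb among members without a call. It had 34.4, 33.9 and 36.3 CPM in the siSRSF2 libraries, against 34.1, 33.2 and 35.1 CPM in the WT libraries (log2 fold change 0.03, SE 0.058, edgeR adjusted p = 0.668). The libraries of both groups were interleaved.

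**Figure D3:**
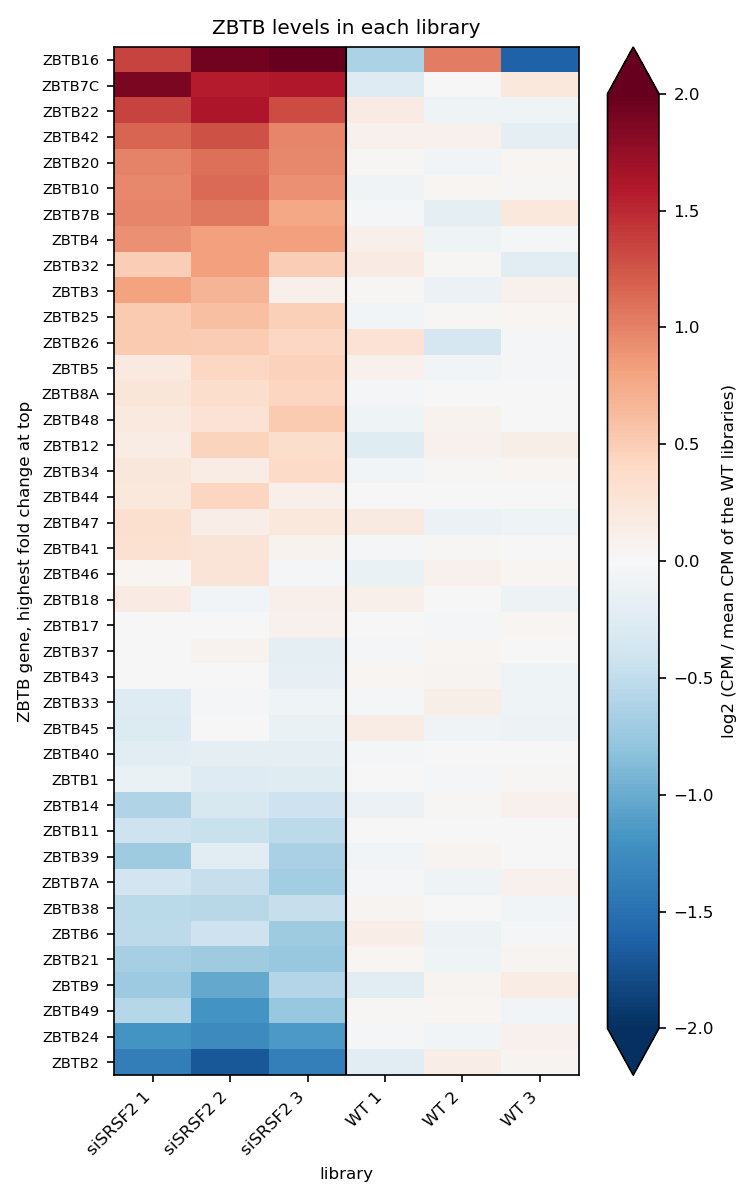
Level of each tested ZBTB gene (rows, highest fold change at the top) in each library (columns, siSRSF2 left of the black line and WT right of it), as log2 of CPM over the mean CPM of the WT libraries. Rows at the top are red and rows at the bottom blue in all 3 siSRSF2 libraries, and ZBTB16 is the row with the widest spread within WT, from 0.0422 to 0.263 CPM.

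Among the members outside these role sets, ZBTB7C, ZBTB22 and ZBTB42 rose most. ZBTB7C, a close relative of ZBTB7A reported in lipid and cell cycle gene control, had 2.87, 2.31 and 2.37 CPM in the siSRSF2 libraries, against 0.651, 0.788 and 0.906 CPM in the WT libraries. No siSRSF2 library came near the WT range (log2 fold change 1.68, SE 0.23, edgeR adjusted p = 4.29e-07). ZBTB22, which lies in the extended major histocompatibility region of chromosome 6, had 6.48, 7.76 and 6.26 CPM in the siSRSF2 libraries, against 2.83, 2.39 and 2.38 CPM in the WT libraries (log2 fold change 1.43, SE 0.14, edgeR adjusted p = 1.42e-09). ZBTB42, in which a homozygous mutation has been linked to a lethal congenital contracture syndrome, had 3.64, 3.94 and 3.20 CPM in the siSRSF2 libraries, against 1.74, 1.73 and 1.43 CPM in the WT libraries (log2 fold change 1.14, SE 0.18, edgeR adjusted p = 3.39e-06). For both genes the lowest siSRSF2 library was well above the highest WT library.

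ZBTB2, ZBTB49, ZBTB9, ZBTB21 and ZBTB6 were the largest falls of this remainder. ZBTB2, a reported repressor of the p53 pathway and of CDKN1A, had 5.52, 4.41 and 5.57 CPM in the siSRSF2 libraries, against 12.4, 15.7 and 14.9 CPM in the WT libraries. It was the member with the largest fall (log2 fold change -1.48, SE 0.11, edgeR adjusted p = 1.34e-11), a 2.79-fold lower level. ZBTB49, reported to activate CDKN1A, had 2.80, 1.82 and 2.45 CPM in the siSRSF2 libraries, against 4.22, 4.27 and 3.98 CPM in the WT libraries (log2 fold change -0.84, SE 0.16, edgeR adjusted p = 8.92e-05). ZBTB21, a BTB zinc-finger repressor, had 10.5, 10.2 and 9.87 CPM in the siSRSF2 libraries, against 17.1, 15.7 and 17.2 CPM in the WT libraries (log2 fold change -0.71, SE 0.083, edgeR adjusted p = 3.42e-08). Groups of both genes lay apart, with the siSRSF2 libraries lower.

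ZBTB6 had 6.33, 6.82 and 5.54 CPM in the siSRSF2 libraries, against 9.93, 8.45 and 8.83 CPM in the WT libraries (log2 fold change -0.54, SE 0.11, edgeR adjusted p = 0.000148), and ZBTB9 had 3.17, 2.57 and 3.49 CPM in the siSRSF2 libraries, against 4.45, 5.45 and 5.80 CPM in the WT libraries (log2 fold change -0.77, SE 0.15, edgeR adjusted p = 8.18e-05). The groups did not overlap for either. The ZBTB9 value is uncertain, since reads at its exon positions cannot be assigned to it alone.

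The remaining members changed less. ZBTB39 (log2 fold change -0.49), ZBTB11 (-0.46), ZBTB14 (-0.43), a reported repressor of MYC, and ZBTB40 (-0.20) fell. ZBTB3 (0.55), ZBTB26 (0.48), ZBTB5 (0.37), a reported repressor of CDKN1A, ZBTB8A (0.35), ZBTB12 (0.33), ZBTB44 (0.25), ZBTB47 (0.22) and ZBTB41 (0.21) rose. Leaving out a library ended some of these small calls. ZBTB12 did not pass without the second or the third siSRSF2 library or the first or second WT library (edgeR adjusted p = 0.0555 to 0.239), and ZBTB3 without the first or second siSRSF2 library or the second WT library (0.0705 to 0.0955). ZBTB41 did not pass without the first or second siSRSF2 library or the first WT library (edgeR adjusted p = 0.0629 to 0.0739), and ZBTB47 without the first siSRSF2 library or the second or the third WT library (0.0854 to 0.125). ZBTB26 did not pass without the second WT library (edgeR adjusted p = 0.107), and ZBTB34 passed without the second siSRSF2 library (0.0360). Across all 32 calls the edgeR adjusted p ran from 7.60e-16 to 0.0427, the highest being that of ZBTB12. ZBTB34 (0.26, edgeR adjusted p = 0.0579), ZBTB37 (-0.04) and ZBTB43 (-0.05) did not pass, although the ZBTB34 groups did not overlap. For ZBTB47 the groups overlapped although the test was passed. ZBTB40, like ZBTB1, did not pass with scaling by library totals alone (log2 fold change -0.07). ZBTB11 shares 12.02% of its exon bases with ZBTB11-AS1 on the opposite strand, which also fell (log2 fold change -0.61), and ZBTB8A shares 25.2% with a same-strand entry, RP1-27O5.3, which also rose (0.39). Reads of ZBTB11 and its antisense entry cannot be told apart without a stated strand setting, and those in the exon bases that ZBTB8A shares cannot be told apart by strand at all. Of the 41 members, 28 share no exon position with another entry.

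Of 4 neighbouring pairs of tested members, 3 held a riser beside a faller. ZBTB25 and ZBTB1 overlap head to head on chromosome 14, ZBTB26 and ZBTB6 lie 2235 bases apart on chromosome 9 with the same strand, ZBTB34 and ZBTB43 lie 22454 bases apart on the same chromosome, and ZBTB22 and ZBTB9 lie 136027 bases apart on chromosome 6 (GRCh38). The pair of ZBTB34 and ZBTB43 is the exception, as neither passed the test. The ratio of ZBTB25 to ZBTB1 was 0.558, 0.640 and 0.575 in the siSRSF2 libraries, against 0.335, 0.367 and 0.357 in the WT libraries, a 1.67-fold change. The ratio of ZBTB26 to ZBTB6 was 0.657, 0.605 and 0.698 in the siSRSF2 libraries, against 0.357, 0.272 and 0.322 in the WT libraries, a 2.07-fold change. Both ratios were higher in every siSRSF2 library than in any WT library. ZBTB1 and ZBTB25 share 507 exon bases on opposite strands, 9.60% of the exon bases of ZBTB1 and 4.15% of those of ZBTB25, and reads there cannot be given to either without strand. The ratio of ZBTB22 to ZBTB9 changed 4.59-fold, with the limit on ZBTB9 given above. For ZBTB34 to ZBTB43 the log2 difference was 0.30 with an SE of 0.142.

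The ZBTB7 genes, which share closely related zinc fingers, also diverged. ZBTB7B relative to ZBTB7A was 0.301, 0.337 and 0.326 in the siSRSF2 libraries, against 0.116, 0.109 and 0.128 in the WT libraries. ZBTB7C relative to ZBTB7A was 0.0392, 0.0335 and 0.0405 in the siSRSF2 libraries, against 0.00693, 0.00878 and 0.00894 in the WT libraries. In mean CPM per kb of exon ZBTB7A was the highest of the 3 in both groups. In all 8 ratios computed the groups did not overlap. The two-sided exact permutation p was 0.1, the smallest that 3 against 3 libraries can give, and 0.1 after Benjamini-Hochberg adjustment over the 8. A riser over a faller, each without overlap, cannot give an overlapping ratio, so p was fixed in advance there. This holds for ZBTB25 over ZBTB1, ZBTB26 over ZBTB6, ZBTB22 over ZBTB9, ZBTB7B and ZBTB7C over ZBTB7A, and ZBTB4 over ZBTB38. For these the p adds nothing to the calls of the genes. All 8 ratios were chosen after the data were seen and are a description.

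**Figure D4:**
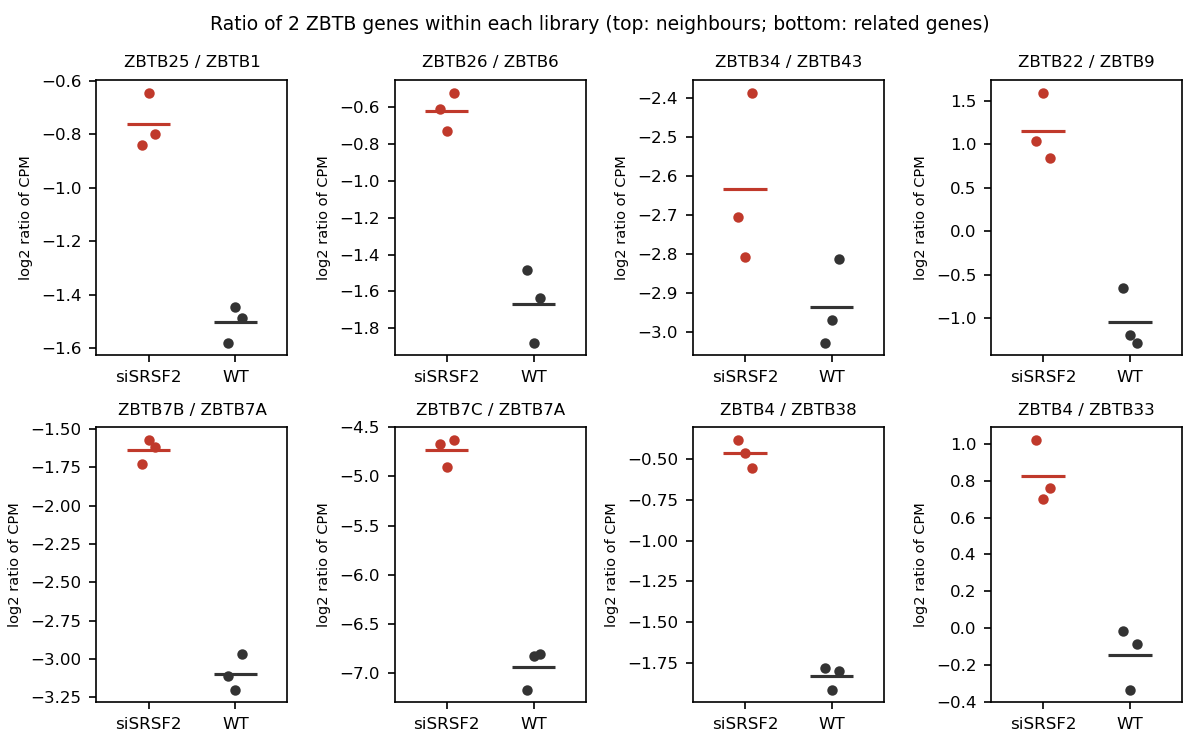
Log2 ratio of the CPM of 2 ZBTB genes within each library (y axis, scale set per panel) in siSRSF2 cells (left) and WT cells (right), with a line at each mean, for 4 neighbour pairs (top) and 4 pairs of related genes (bottom). In every panel the 3 siSRSF2 points lie above the 3 WT points, least clearly for ZBTB34 over ZBTB43.

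Coding sequences of the members also differed between risers and fallers in base composition. In the longest GENCODE coding transcript of each gene, the letters CCNG and GGNG, which SRSF2 is known to bind in RNA, occurred at a median of 58.4 per kb in the risers and 34.4 per kb in the fallers, beside 44.9 per kb over all 41 members and over all 19510 coding genes. Fallers such as ZBTB1 (17.8 per kb), ZBTB6 (15.7) and ZBTB21 (26.0) were poor in them, and risers such as ZBTB4 (87.5), ZBTB7C (75.9) and ZBTB22 (71.5) were rich. There were exceptions on both sides, since ZBTB7A (84.5 per kb) fell and ZBTB41 (15.4 per kb) and ZBTB8A (17.4 per kb) rose. Across the 40 tested genes Spearman's rank correlation between this density and the log2 fold change was 0.405, and across 13498 tested coding genes it was 0.143. The density follows GC content (rank correlation 0.96 across the members), and coding GC alone gave 0.372 across the members and 0.146 across all coding genes, so the letters and the composition cannot be told apart. Median coding GC was 59.6% in risers and 47.7% in fallers, beside 52.9% over all coding genes. The rank correlation of the log2 fold change was -0.356 with log2 mean CPM, 0.075 with exon length, 0.0742 with the number of exon blocks and -0.145 with protein length. These are descriptions across genes of the same 6 libraries, and genes are not independent replicates.

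BTB zinc-finger genes that carry other names also split. Of the 8 found and tested, 3 (37.5%) rose and 5 (62.5%) fell, beside 33.3% and 37.9% of the protein-coding genes tested. BCL6, the repressor of germinal centre B cells, rose to 25.1 ± 3.03 CPM in siSRSF2 cells, against 6.22 ± 0.146 CPM in WT cells (SD, n = 3 each, log2 fold change 2.01, edgeR adjusted p = 3.36e-16). ZNF131 (log2 fold change -0.68), GZF1 (-0.67) and MYNN (-0.54) fell. Of 18 genes for corepressors and partners of BTB domains, 6 (33.3%) rose, 8 (44.4%) fell and 4 did not pass, with a median of -0.05. These shares lie near those of the protein-coding genes. CUL3, the ubiquitin ligase scaffold bound by BTB proteins, fell (log2 fold change -0.80), as did GPS2 of the NCOR complex (-0.50), while BCORL1 (1.17) and SIN3A (0.62) rose.

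Genes that act with or downstream of the family were mixed as well. Of 13 genes for DNA methylation and its readers, 4 (30.8%) rose, 8 (61.5%) fell and 1 did not pass, with a median of -0.35. Among the protein-coding genes tested, 33.3% rose and 37.9% fell. The de novo methyltransferase DNMT3A rose (log2 fold change 1.48), while UHRF1 (-0.78), which guides maintenance methylation, MBD3 (-0.83) and the demethylating enzyme gene TET3 (-0.71) fell. Of 8 tested genes reported as ZBTB targets, 2 (25%) rose, 3 (37.5%) fell and 3 did not pass, with a median of -0.06. SLC2A3, a glucose transporter gene reported as repressed by ZBTB7A, rose (log2 fold change 2.22), whereas PFKP, reported likewise, was slightly lower (-0.13) and its groups overlapped. CDKN1A, the cell cycle inhibitor gene reported under ZBTB2, ZBTB5, ZBTB17 and ZBTB49, rose (0.74), and CCND1, reported under ZBTB33, fell (-2.25). CDCA7, which ZBTB24 is known to activate, was named after its values were seen. It had 76.5, 71.3 and 68.2 CPM in the siSRSF2 libraries, against 78.5, 78.5 and 80.5 CPM in the WT libraries (log2 fold change -0.14, SE 0.051, edgeR adjusted p = 0.0213). That fall was smaller than the fall of ZBTB24 itself (-1.20). Target values are set beside those of the factors, and no link between them was tested.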

How the data were processed

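The values deposited by the authors are raw counts of reads for 6 libraries, without scaling. The submitters' processing notes name HISAT2 2.0.5, featureCounts 1.5.0-p3 and the mouse build mm10. The deposited table holds human gene names, and 93.1% of 36027 names found once in GENCODE release 29 (GRCh38) have the same position there, so positions are given as GRCh38. ZBTB40 and ZBTB44 differ from it. Strand setting and the treatment of reads in shared positions were not given in the sources used here.

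The counts were fitted with edgeR 4.0.16 in R 4.3.3 (filterByExpr with a minimum count of 10, TMM scaling, robust quasi-likelihood F test, group as the only term, Benjamini-Hochberg adjustment at 0.05 over 23689 genes). The steps were tested on simulated data. CPM uses TMM-scaled library sizes, and the SE is the log2 fold change divided by the square root of F. The common biological coefficient of variation was 6.27%. Libraries of the same group differed beyond sampling noise in every pair (chi-square per gene 3.83 to 8.75), so none was treated as a repeat. Intervals and floors cover counting error only, as reads carry no stated molecular identifiers.

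The members, role sets and related lists were chosen with earlier results of these data known, and the promoter motifs, coding features and gene ratios were chosen after the data were seen. Values in every library are given for role-set members and for the 8 largest rises and 8 largest falls past the test with at least 1 CPM and no overlap. Others are given by log2 fold change, and related lists by counts and up to 4 genes with the smallest p. Of 15 listed BTB zinc-finger symbols outside the family name, 7 are former symbols and were not found as such. Some listed genes, and results that need them such as the summed level of all leukocyte markers, are not reported here. Alternatives were DESeq2 1.42.0, limma 3.58.1 with voom, RLE factors, library totals, no filter, a mean CPM of at least 1, the replicate number as a block, a fit without robust estimation, a test against 1.2-fold and each library left out.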

Additional observations from a re-analysis of the deposited data

How the results depend on the processing

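Of the 32 called members, 21 passed in the same direction in every alternative run and 11 were lost in at least 1, 3 of them only in the test against 1.2-fold. ZBTB12 held in 7 of 15 alternatives, ZBTB41 and ZBTB47 in 10, and ZBTB3 and ZBTB48 in 11. No called member reversed. Scaling by library totals alone moved the median over all genes to 0.15, 0.13 above TMM scaling, and that over tested members to 0.29. The members then counted 22 higher and 11 lower, and all genes 8560 and 5492, beside 7129 and 6862 with TMM. The summed level of the 41 genes (siSRSF2 minus WT) was -50.7 CPM with TMM and 31.1 CPM with library totals, an alternative chosen after seeing the data. The test against 1.2-fold called 10 members higher and 11 lower.

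The log2 fold changes that changed sign were all of members not past the test. With library totals they were 0.017 for ZBTB33, 0.091 for ZBTB37, 0.083 for ZBTB43 and 0.0093 for ZBTB45. With no filter they were -0.043 for ZBTB17 and -0.0048 for ZBTB18, and with a mean CPM of at least 1, which leaves ZBTB16 out, 0.016 for ZBTB37 and 0.0072 for ZBTB43. Leaving out 1 library at a time gave -0.0052 to 0.047 for ZBTB17, -0.11 to 0.027 for ZBTB37, -0.10 to 0.0018 for ZBTB43 and -0.00035 to 0.15 for ZBTB46. Members called higher ranged from 15 to 18 without 1 library and were 15 with no filter, while 13 were lower in each of these. The cause was not tested.

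With the replicate number as a block, 19 members were higher and 13 lower, and no member's call changed. The deviations of same-numbered libraries correlated at 0.0133, -0.0472 and -0.0457. No pairing by number shows in these values, but so few libraries cannot exclude one, and the labels do not state any. The siSRSF2 libraries are the shallower ones, which limits the low-count members ZBTB16 and ZBTB8B most.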
